A study of Mus musculus with 6 samples.

Results

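A group of 10 genes of collagen maturation was followed in MEFs (mouse embryonic fibroblasts), cultured connective tissue cells of the mouse embryo: the prolyl 4-hydroxylase alpha subunits P4ha1, P4ha2 and P4ha3, the lysyl hydroxylases Plod1, Plod2 and Plod3, the collagen chaperone gene Serpinh1, and the lysyl oxidase genes Lox, Loxl1 and Loxl2. They were chosen by name for their role, with earlier results of these data known. All 10 are among the 22355 genes of the deposited table. The cells had been transfected with a small interfering RNA against Hk2, which encodes the glycolytic enzyme hexokinase 2 (siHk2, 3 libraries), or with a negative control siRNA (siControl, 3 libraries). The comparison asks how transcript levels differ once Hk2 is lowered. The sources used here do not give the siRNA sequences, the mouse strain, the passage or the time after transfection. They also do not say whether a group's libraries are separate cultures, so the p-values measure only the spread between these libraries, which may be technical.

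Collagen chains are modified inside the endoplasmic reticulum before they leave the cell. Prolyl 4-hydroxylase, made of catalytic alpha subunits and protein disulfide isomerase (P4hb), converts prolines to 4-hydroxyproline, which lets the triple helix stay folded at body temperature; lysyl hydroxylases convert lysines to hydroxylysine, the anchor of sugars and of the most stable crosslinks. Both use oxygen, iron, ascorbate and 2-oxoglutarate. The chaperone HSP47, encoded by Serpinh1, holds the finished helix on its way out, and the copper enzymes of the lysyl oxidase family then crosslink collagen and elastin outside the cell.

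Levels were deposited as TPM, a length-corrected abundance unit scaled to the same total in each library, which keeps no record of sequencing depth. Hk2 was at 22.4, 21.4 and 21.8 TPM in siHk2 libraries 1, 2 and 3, against 57.1, 62.5 and 58.9 TPM in siControl libraries 4, 5 and 6. Of the 13341 genes whose mean reached 1 TPM, 13.6% passed an adjusted p of 0.05 in limma. Of 11 fibroblast markers measured, 7 reached a mean of 1 TPM, and their sum ran from 2857 to 3070.1 TPM in siHk2 and from 3179 to 3221 TPM in siControl. Vim fell to 1970 ± 58.5 TPM in siHk2, against 2365 ± 51.2 TPM in siControl (SD, n = 3 each, adjusted p = 0.0110 in limma), a call lost without siHk2 library 3. Pdgfra was at 29.0 ± 1.66 and 30.3 ± 1.155 TPM in the same order, while Thy1, Dcn, Lum and Fap were below 1 TPM in every library. Vim held the largest part of the fibroblast sum, and the markers did not move as a set. Of the 7 tested, 4 had a log2 fold change above 0, with a median of 0.02. Fn1 was at 572 ± 65.1 TPM in siHk2 and 460 ± 83.2 TPM in siControl. Pdgfrb was at 175 ± 34.9 and 153 ± 35.5 TPM in the same order, and neither passed. Markers of other cell types were summed per library. The adipocyte sum, with 4 of 6 markers reaching a mean of 1 TPM and Adipoq and Plin1 below it, ran from 1361 to 1419 TPM in siHk2 and from 873 to 899 TPM in siControl. Lpl held the largest part of it, at 894 ± 64.3 TPM in siHk2 and 501 ± 88.5 TPM in siControl. Fabp4 came next, with overlapping groups at 331 ± 36.8 and 259 ± 73.4 TPM in the same order. The neural and glial sum (2 of 6, nearly all S100b, with Sox10 below 1 TPM) ran from 137 to 149.7 TPM in siHk2 and from 90.7 to 95.6 TPM in siControl, and the chondrocyte and bone sum (4 of 7, Acan, Col2a1 and Bglap below) from 62.7 to 66.3 TPM in siHk2 and from 51.6 to 55.4 TPM in siControl. The epithelial sum (1 of 7, Krt7, with Epcam and Cdh1 below) was 6.28 to 9.09 TPM in siHk2 and 2.62 to 3.73 TPM in siControl. Muscle markers (3 of 4 measured) summed to 126 to 159.6 TPM in siHk2 and 108 to 147 TPM in siControl, and myeloid markers (2 of 6, Ptprc below) to 37.1 to 42.4 TPM in siHk2 and 36.5 to 62.1 TPM in siControl. No endothelial marker of 6 reached 1 TPM. The part of such cells in the differences given here was not tested. In bulk RNA, fewer cells of a type and less RNA per cell cannot be told apart.

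The promoters of P4ha1 and P4ha2 are shown because these genes encode alternative subunits of the same enzyme, differ widely in level and are both known to respond to hypoxia. Each sequence is the RefSeq window from 250 bases before to 50 bases after the annotated start on build GRCm38.p6, 5′ to 3′ on the coding strand. Capitals mark the letters ACGTG or GCGTG on either strand, the core of the hypoxia response element, with overlapping matches counted separately. The P4ha1 window lies at chr10:59323046-59323345 on the plus strand and P4ha2 at chr11:54100674-54100973 on the plus strand.
P4ha1: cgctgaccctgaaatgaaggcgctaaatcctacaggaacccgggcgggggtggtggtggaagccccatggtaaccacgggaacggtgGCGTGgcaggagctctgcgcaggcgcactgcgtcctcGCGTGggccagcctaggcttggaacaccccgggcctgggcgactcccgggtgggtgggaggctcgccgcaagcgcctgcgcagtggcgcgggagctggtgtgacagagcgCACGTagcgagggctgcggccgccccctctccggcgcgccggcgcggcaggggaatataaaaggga
P4ha2: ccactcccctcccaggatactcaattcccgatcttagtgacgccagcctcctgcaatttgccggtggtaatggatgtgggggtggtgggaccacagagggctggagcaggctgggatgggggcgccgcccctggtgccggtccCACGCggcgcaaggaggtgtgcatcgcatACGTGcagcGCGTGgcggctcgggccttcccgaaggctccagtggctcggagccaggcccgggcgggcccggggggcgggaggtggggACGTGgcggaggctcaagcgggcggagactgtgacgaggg

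The P4ha1 window holds 3 such matches and the P4ha2 window 4. Promoters were found for 6 of the 10 genes, and 5 of these held at least 1 match, while P4ha3 held 0. The same letters occur in 43.8% of 32851 annotated promoter windows of that length. These matches describe the letters alone.

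Of the 8 genes that reached a mean of 1 TPM, 1 rose in siHk2, 0 fell and 7 did not pass the threshold in limma with Benjamini-Hochberg adjustment. Plod2, the lysyl hydroxylase that acts on the telopeptides at the ends of collagen chains, was the one that rose. Among all tested genes 6.15% rose and 7.42% fell, so a count of 1 in 8 lies close to the background. The groups did not overlap for 4 of the 8 (P4ha1, Plod2, Serpinh1 and Loxl2), against 35.7% of all tested genes. The median log2 fold change of the 8 was 0.01, and that of all tested genes was 0.01. P4ha3 and Lox were below the filter.

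**Figure D1:**
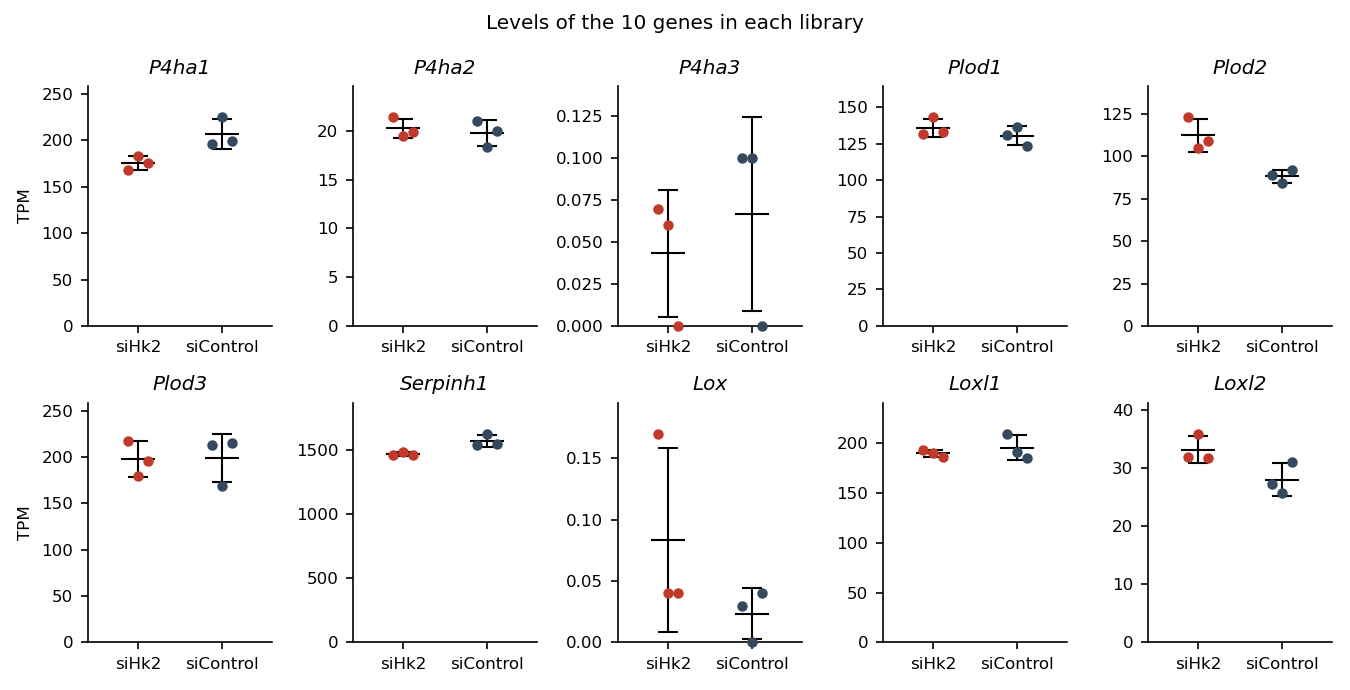
TPM of each gene in the 3 siHk2 libraries (red, left) and the 3 siControl libraries (dark, right), with the mean and SD of each group in black. Each panel has its own linear axis from 0; Plod2 is higher in every siHk2 library, P4ha1 is lower in every one, and the axes of P4ha3 and Lox end below 1 TPM.

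The genes spanned a wide range of levels, and TPM, being corrected for length, allows them to be set beside each other. Serpinh1 was the most abundant in both groups, at 1469 ± 14.9 TPM in siHk2 and 1571 ± 49.3 TPM in siControl (SD, n = 3 each). In siHk2, Plod3, Loxl1 and P4ha1 came next, with the range of Plod3 overlapping those of both others. Plod1, Plod2, Loxl2 and P4ha2 followed with ranges that did not overlap. In siControl, the ranges of P4ha1, Plod3 and Loxl1 overlapped one another in turn, followed by Plod1, Plod2, Loxl2 and P4ha2. Lox and P4ha3 came last in both groups. P4ha1 stood at rank 4 in siHk2 and at rank 2 in siControl by mean, but in neither group was it separated from Plod3 beyond the spread.

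Among the prolyl 4-hydroxylase subunits, P4ha1 held most of the transcript. P4ha1 (ENSMUSG00000019916, chr10:59159118-59209126 on build GRCm39, plus strand), the main catalytic subunit in most cells, was at 168, 183 and 176 TPM in siHk2 libraries 1, 2 and 3, against 196, 225 and 199 TPM in siControl libraries 4, 5 and 6. Every siHk2 library lay below every siControl library, and the group means were 176 ± 7.39 and 207 ± 15.8 TPM. The log2 fold change on the log2(TPM + 1) scale was -0.23 (SE 0.0629, 95% confidence interval -0.38 to -0.08), and its adjusted p of 0.0511 in limma missed the threshold. It passed in 4 of 15 alternative settings, among them median-ratio scaling of the libraries (adjusted p = 0.0433 in limma).

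P4ha2 (ENSMUSG00000018906, chr11:53990921-54022491, plus strand), an alternative catalytic subunit, was at 21.4, 19.5 and 19.9 TPM in siHk2 and at 21.1, 18.4 and 19.98 TPM in siControl. The groups overlapped (log2 fold change 0.03, 95% confidence interval -0.14 to 0.20, adjusted p = 0.810 in limma). P4ha3 (ENSMUSG00000051048, chr7:99934727-99968906, plus strand), a further catalytic subunit, was listed at 0.07, 0.06 and 0 TPM in siHk2 and at 0.1, 0.1 and 0 TPM in siControl. At these values it contributed almost nothing to the family sum.

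The share of P4ha1 in the summed TPM of the 3 subunits was 88.7%, 90.3% and 89.9% in siHk2, against 90.3%, 92.4% and 90.9% in siControl. The share differed by -1.56 percentage points (siHk2 minus siControl, exact two-sided permutation test p = 0.2), and the ranges overlapped slightly. The beta subunit gene P4hb, which is shared by all 3 enzymes, was at 2521 ± 49.1 TPM in siHk2 and 2278 ± 42.9 TPM in siControl (SD, n = 3 each). Its log2 fold change of 0.15 had the opposite sign to that of P4ha1 and did not pass (adjusted p = 0.0569 in limma).

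The 7-base sequence GGAGACT occurs in all 3 annotated 3′ untranslated regions (UTRs) of P4ha1. It is looked at here because an earlier scan of the same fold changes had picked it, so its presence supports nothing about direction. Among the other members it was found in 1 of 5 annotated 3′ UTRs of P4ha2 and in 2 of 2 of Lox, and in 0 of those of the remaining 7 genes. The longest 3′ UTR of 13.4% of 11514 tested genes holds it. Each line gives 30 bases around a site in the longest annotated 3′ UTR (GENCODE M21, build GRCm38, 5′ to 3′), with GGAGACT in capitals, for P4ha1 at chr10:59371793-59371822 and for Fkbp10, a prolyl isomerase of the lysyl hydroxylase complex described with the folding genes, at chr11:100424193-100424222, both on the plus strand.
P4ha1: tctgtgccttaGGAGACTgggagttagaaa
Fkbp10: tggatatcagtGGAGACTactgtggtcttc

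Whether these sites bear on the levels was not tested. In the lists described further on, the cofactor and oxygen-sensing genes included, 1 of 4 genes that fell (Fkbp10) and 1 of 10 that rose (Bmp1) hold the sequence in at least 1 annotated 3′ UTR.

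Among the lysyl hydroxylases, Plod2 rose while Plod1 and Plod3 showed no difference beyond their spread. Plod2 (ENSMUSG00000032374, chr9:92424276-92490481, plus strand) was at 123, 104.9 and 109 TPM in siHk2, against 89.0, 84.1 and 91.9 TPM in siControl. All 3 siHk2 libraries lay above all 3 siControl libraries, with means of 112 ± 9.52 and 88.3 ± 3.92 TPM, a difference of 27.3%. On the log2 scale it was 0.34 with an SE of 0.0684, its 95% confidence interval ran from 0.18 to 0.50, and limma gave an adjusted p of 0.0203. The call was lost in 4 of 15 settings: without siControl library 4 (adjusted p = 0.0685), without siHk2 library 3 (0.0682), without siControl library 5 and siHk2 library 2 together (0.0551), and with no mean-variance trend (0.0542), all in limma. The log2 fold change stayed between 0.28 and 0.39 in all 15.

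Plod1 (ENSMUSG00000019055, chr4:147994210-148021224, minus strand), which hydroxylates lysines of the triple helix, was at 132, 143 and 133 TPM in siHk2 and at 131, 137 and 124 TPM in siControl. Its interval ran from -0.07 to 0.19 on the log2 scale (adjusted p = 0.517 in limma). Plod3 (ENSMUSG00000004846, chr5:137015873-137025502, plus strand), whose product also has glycosyltransferase activity, was at 218, 179 and 196 TPM in siHk2 and at 213, 169 and 215 TPM in siControl (interval -0.26 to 0.24, adjusted p = 0.974 in limma). The groups overlapped for both genes, and Plod3 was lowest in siHk2 library 2 and siControl library 5.

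Plod2 therefore made up a larger part of the lysyl hydroxylase transcripts in every siHk2 library. Its share of the summed TPM of Plod1, Plod2 and Plod3 was 26.1%, 24.5% and 24.96% in siHk2, against 20.6%, 21.6% and 21.3% in siControl. The lowest siHk2 share lay above the highest siControl share. The difference of 4.03 percentage points gave p = 0.1 in an exact two-sided permutation test, the smallest value that 3 against 3 libraries can give. Because it is a ratio within a library, this share does not change with library scaling. The share of Plod3 was 44.2 ± 2.09% in siHk2 and 47.5 ± 3.60% in siControl, and that of Plod1 was 30.6 ± 2.82% and 31.3 ± 3.31% in the same order (SD, n = 3 each, exact permutation p = 0.3 and 0.8). Over the 10 shares and ratios tested in this way, the smallest Benjamini-Hochberg adjusted p was 0.25, again from the exact tests.

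**Figure D2:**
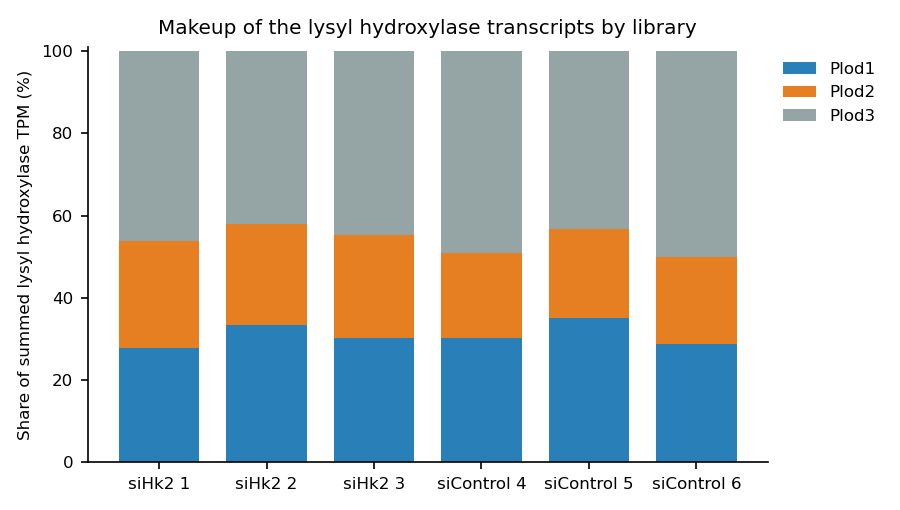
Share of each lysyl hydroxylase in the summed TPM of Plod1, Plod2 and Plod3, as a stacked bar per library, siHk2 libraries on the left and siControl libraries on the right. The orange band of Plod2 is 24.5% to 26.1% in siHk2 and 20.6% to 21.6% in siControl, while the split between Plod1 and Plod3 varies within both groups.

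Serpinh1 (ENSMUSG00000070436, chr7:98994583-99002446, minus strand), whose product binds folded procollagen, was at 1462, 1486 and 1458 TPM in siHk2, against 1538, 1627 and 1547 TPM in siControl. Every siHk2 library lay below every siControl library, by 6.5% in the means. The log2 fold change of -0.10 (SE 0.0413, interval -0.19 to 0) did not pass (adjusted p = 0.163 in limma), nor did it in any of the 15 alternative settings.

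Among the lysyl oxidases, none passed. Loxl1 (ENSMUSG00000032334, chr9:58195021-58220469, minus strand), which is needed for elastic fibres, was at 193, 189.8 and 187 TPM in siHk2 and at 209.5, 191 and 186 TPM in siControl (log2 fold change -0.04, adjusted p = 0.657 in limma). Loxl2 (ENSMUSG00000034205, chr14:69846517-69933283, plus strand), which crosslinks type IV collagen among others, was at 32.0, 35.9 and 31.7 TPM in siHk2, against 27.3, 25.7 and 31.1 TPM in siControl. The Loxl2 groups did not overlap, though the lowest siHk2 library, at 31.7 TPM, lay close to the highest siControl library, at 31.1 TPM. The log2 fold change of 0.24 (SE 0.0862, interval 0.04 to 0.44) did not pass (adjusted p = 0.107 in limma). Without siControl library 5 and siHk2 library 2 it was 0.12. Of the 50-base windows of the longest coding transcript of Loxl2, 45.8% are shared with another gene's transcripts, which leaves the Loxl2 values uncertain.

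**Figure D3:**
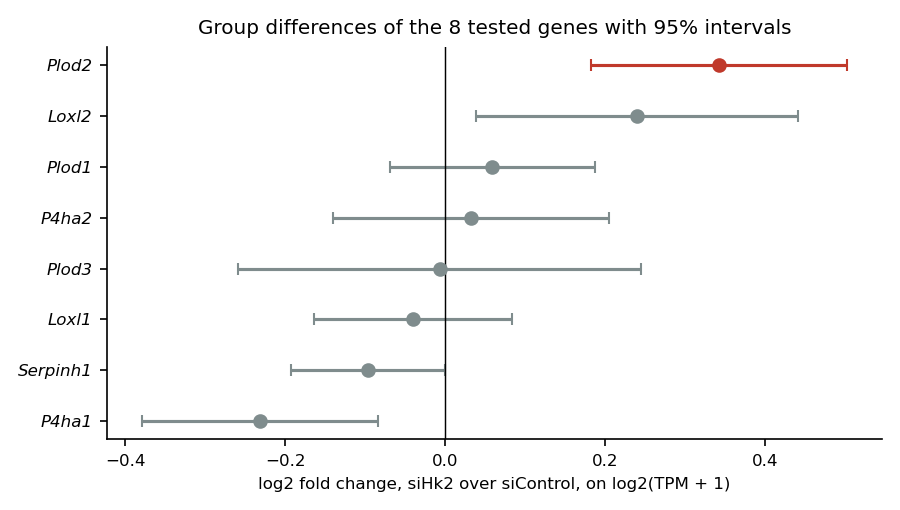
Log2 fold change of siHk2 over siControl on the log2(TPM + 1) scale for the 8 tested genes (points) with 95% confidence intervals from limma (bars), red where the adjusted p was under 0.05. Plod2 at 0.34 is the only red point; the intervals of P4ha1 and Loxl2 also exclude 0 before adjustment.

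Lox, the founding lysyl oxidase and commonly abundant in fibroblasts, was listed at 0.17, 0.04 and 0.04 TPM in siHk2 and at 0.03, 0 and 0.04 TPM in siControl. No fold change was computed at these values, and Lox made up at most 0.0755% of the summed TPM of Lox, Loxl1 and Loxl2 in any library. Lox (ENSMUSG00000024529) is on the minus strand at chr18:52649139-52662939 in the deposited table, and the long non-coding RNA Gm41724 overlaps it by 1207 bases on the opposite strand. Gm41724, looked up after the Lox values had been seen, was at 94.4, 76.4 and 88.98 TPM in siHk2, against 60.7, 50.3 and 67.1 TPM in siControl (log2 fold change 0.54, adjusted p = 0.0259 in limma). That call was lost without siControl library 4, siHk2 library 1 or siHk2 library 3. The labels' protocol mentions dUTP marking for strand-specific libraries without saying how reads were counted, so reads of the overlapping stretch cannot be assigned to either gene here. Plod3 overlaps Znhit1, on the opposite strand, by 1003 bases, and Znhit1 was at 74.6 ± 4.02 TPM in siHk2 and 71.2 ± 5.96 TPM in siControl (SD, n = 3 each). Loxl2 overlaps the long non-coding RNA Gm27177, on the opposite strand, by 74219 bases, and Gm27177 averaged 0.0233 TPM over the 6 libraries.

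Within the groups, 2 libraries often deviated alike. In 6 of the 8 tested genes, siHk2 library 2 and siControl library 5 sat at the same end of their groups. Both were highest for P4ha1, Plod1 and Serpinh1, and both were lowest for P4ha2, Plod2 and Plod3. The same libraries were highest in Col1a1, a type I collagen chain, with 192 TPM in siHk2 library 2 and 137 TPM in siControl library 5. They were lowest in Loxl3, a further lysyl oxidase, with 53.9 and 41.5 TPM in that order. Genes outside collagen maturation showed it too: Pdgfrb was lowest in these libraries (144 and 112 TPM) and Lpl highest (959 and 589 TPM), in that order. Not every related gene did. For Col1a2, the other type I chain, siControl library 5 lay in the middle of its group, at 525 TPM between 519 and 556 TPM. For P4hb, siHk2 library 2 lay in the middle, at 2498 TPM between 2488 and 2578 TPM. Pdgfrb and Lpl are only examples, and the share of the pattern among all tested genes was not counted. A count of 6 in 8 therefore cannot be set against a background here. This pattern was noticed in the data, and nothing in the labels ties these 2 libraries to each other.

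**Figure D4:**
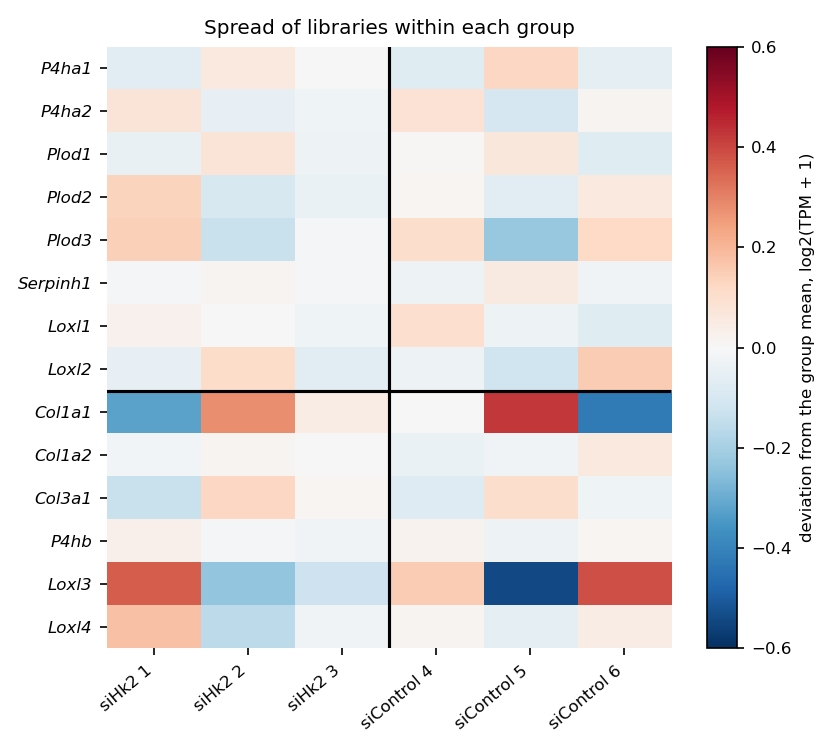
Deviation of each library from the mean of its own group on the log2(TPM + 1) scale (colour), for the 8 tested genes (above the line) and 6 related genes (below it), siHk2 libraries on the left and siControl libraries on the right. The columns of siHk2 2 and siControl 5 share their colours in P4ha1, P4ha2, Plod1, Plod2, Plod3 and Serpinh1 and differ in Loxl2. Below the line, Col1a2 has small deviations of opposite sign in them.

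Type I collagen is the main fibrillar collagen of connective tissue. Relative to it, transcripts of prolyl 4-hydroxylase alpha subunits, Serpinh1 and lysyl oxidases were lower in every siHk2 library than in any siControl library. P4hb, the beta subunit gene, was not part of the prolyl 4-hydroxylase sum. Col1a1 was at 160.3 ± 32.9 TPM in siHk2 and 105 ± 30.8 TPM in siControl, and Col1a2 at 593 ± 6.40 and 533 ± 19.9 TPM in the same order (SD, n = 3 each); neither passed (adjusted p = 0.106 and 0.0507 in limma). The log2 ratio of summed P4ha1, P4ha2 and P4ha3 to summed Col1a1 and Col1a2 was -1.91, -1.96 and -1.95 in siHk2, against -1.51, -1.44 and -1.53 in siControl, a difference of -0.45. That of Serpinh1 was 1.04, 0.91 and 0.95 in siHk2, against 1.31, 1.30 and 1.29 in siControl, a difference of -0.33. The groups did not overlap in either ratio, and both gave the smallest exact permutation p of 0.1. The lysyl oxidase ratio differed by -0.24 (exact permutation p = 0.1) and that of the 3 lysyl hydroxylases by -0.14 (exact permutation p = 0.2), with overlapping groups for the lysyl hydroxylases. The summed P4ha transcripts were lower in siHk2 (190, 203 and 196 TPM, against 217.5, 243 and 219 TPM in siControl) and the summed Col1a1 and Col1a2 transcripts higher (712, 790.2 and 756 TPM, against 621, 662 and 632 TPM). The summed lysyl hydroxylases were at 473, 427 and 438 TPM in siHk2 and 433, 389.8 and 431 TPM in siControl, and the summed lysyl oxidases at 225, 226 and 218 TPM in siHk2 and 237, 217 and 217 TPM in siControl, so their lower ratios go with the higher collagen sum.

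The transcripts around these enzymes were described by lists of collagen biosynthesis genes. For every list below, the background is all tested genes, of which 6.15% rose and 7.42% fell. Among 6 other tested genes of proline hydroxylation, Ppib, the cyclophilin of the prolyl 3-hydroxylase complex, fell (158 ± 4.39 TPM in siHk2 and 185 ± 8.59 TPM in siControl, SD, n = 3 each, adjusted p = 0.0239 in limma), 0 rose and 5 did not pass. The Ppib call was lost when siHk2 library 1, 2 or 3 or siControl library 4 was left out. The median log2 fold change of this list was -0.11. P3h1, a prolyl 3-hydroxylase, was at 117 ± 1.62 TPM in siHk2 and 106 ± 4.36 TPM in siControl, and P3h3, of the same family, at 61.5 ± 3.97 and 72.9 ± 5.98 TPM in the same order; neither passed.

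Among 12 tested genes of collagen glycosylation, folding and export, 2 rose, 2 fell and 8 did not pass, with a median of 0.06. The shares over all tested genes were 6.15% rising and 7.42% falling. Sec23a, a coat protein of the vesicles that carry procollagen out of the endoplasmic reticulum, rose most in this list (110.2 ± 3.89 TPM in siHk2 and 76.1 ± 2.26 TPM in siControl, SD, n = 3 each, adjusted p = 0.00185 in limma). Mia3 (TANGO1), the receptor that loads procollagen into those vesicles, rose to 176 ± 1.93 TPM in siHk2, against 154 ± 3.15 TPM in siControl. Fkbp10 fell to 24.1 ± 1.54 TPM in siHk2, against 32.5 ± 2.92 TPM in siControl (adjusted p = 0.0190 in limma), and Pdia4, a disulfide isomerase, fell to 1413 ± 74.0 TPM in siHk2, against 1707 ± 78.4 TPM in siControl. Without siControl library 4 or without siHk2 library 3, the Mia3, Fkbp10 and Pdia4 calls were all lost. Mia3 and Fkbp10 also lost theirs without siHk2 library 1, and Mia3 and Pdia4 without siHk2 library 2. The Fkbp10 product acts with the Plod2 product on telopeptide lysines, and in these libraries the first transcript fell while the second rose.

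Among 5 tested genes of procollagen processing, 2 rose and 0 fell (6.15% and 7.42% of all tested genes), with a median of 0.09. They were Bmp1, which cleaves the C-propeptide and also activates lysyl oxidases (42.5 ± 0.820 TPM in siHk2 and 29.3 ± 0.866 TPM in siControl, adjusted p = 0.00229 in limma), and Adamts2, which cleaves the N-propeptide (31.1 ± 2.20 and 23.2 ± 0.355 TPM in the same order, SD, n = 3 each), whose call was lost without siHk2 library 3. Of the 3 other crosslinking enzymes, 0 passed in limma and 1 had an unadjusted p under 0.05, against 4093 of all 13341 tested genes. It was the transglutaminase gene Tgm2, at 35.8 ± 5.94 TPM in siHk2 and 25.2 ± 5.71 TPM in siControl. Loxl3 and Loxl4 were at 64.6 ± 15.1 and 67.6 ± 8.09 TPM in siHk2, against 63.1 ± 19.7 and 67.6 ± 2.5 TPM in siControl, both above Loxl2 and below Loxl1 in mean level.

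Among 11 tested collagen substrates, 5 rose, 0 fell and 6 did not pass, with a median of 0.20. Of all tested genes, 6.15% rose and 7.42% fell. All 11 substrates were above 0, as were 6826 of all 13341 tested genes. Col6a1, Col6a2 and Col6a3 were barely so, at 0.03, 0.03 and 0.04 (adjusted p = 0.884, 0.904 and 0.909 in limma). The number of substrates that rose was 3 when siHk2 library 1, 2 or 3 or siControl library 4 was left out. Col4a2, a basement membrane chain, was at 455 ± 3.70 TPM in siHk2 and 310.3 ± 6.84 TPM in siControl (SD, n = 3 each, adjusted p = 0.000579 in limma). Its partner chain Col4a1 was at 418 ± 5.59 TPM in siHk2 and 317 ± 13.7 TPM in siControl. The type V chains, which set the width of fibrils, gave the other 3 that rose: Col5a3 at 480.7 ± 3.78 TPM in siHk2 and 389 ± 15.99 TPM in siControl, Col5a2 at 107 ± 1.39 and 93.4 ± 3.02 TPM in the same order, and Col5a1 at 144 ± 10.99 and 105 ± 14.5 TPM. Col4a1, Col4a2, Col5a3, Sec23a and Bmp1 passed in all 15 alternative settings, while the Col5a1 and Col5a2 calls were lost in 6 each. Without siControl library 5 and siHk2 library 2, those 5 and Col5a1 were the genes of these lists that rose, and 0 fell. Elastin (Eln) and Col12a1 were below 1 TPM in every library.

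**Figure D5:**
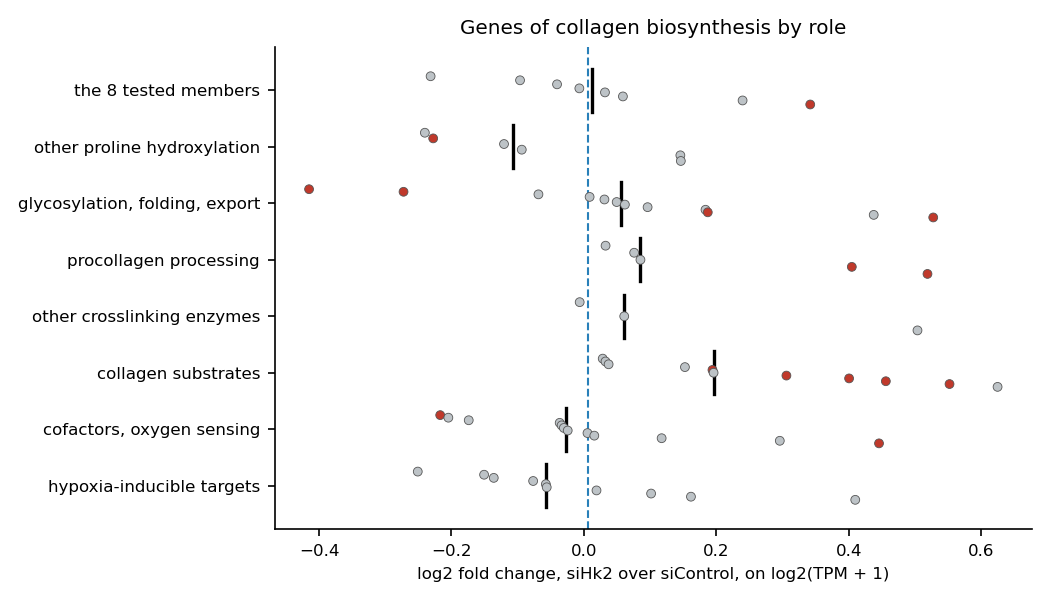
Log2 fold change of siHk2 over siControl on the log2(TPM + 1) scale for each tested gene (points, red where the adjusted p was under 0.05), by role; black bars are list medians and the dashed line is the median of all tested genes. The collagen substrates have the highest median, 0.20, and the 8 tested enzymes lie on both sides of 0.

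Genes that supply or share the cofactors of these hydroxylases gave 1 rise and 1 fall among 12 tested (median -0.03). Over all tested genes, the shares were 6.15% and 7.42%. Both calls in this list were lost without siControl library 4, without siHk2 library 2 or without siHk2 library 3. Glrx, a glutaredoxin, rose to 22.1 ± 1.18 TPM in siHk2, against 16 ± 1.59 TPM in siControl (adjusted p = 0.0175 in limma), and Egln3, an oxygen-sensing prolyl hydroxylase of HIF, fell to 131 ± 2.84 TPM in siHk2, against 153 ± 10.3 TPM in siControl (adjusted p = 0.0430 in limma; SD, n = 3 each). The Egln3 call was also lost without siHk2 library 1. Hif1a, a HIF subunit gene, had the next smallest p of this list and did not pass (adjusted p = 0.0728 in limma). It was at 222 ± 22.1 TPM in siHk2 and 181 ± 17.9 TPM in siControl. Of 10 tested hypoxia-inducible genes outside collagen, 0 passed in limma and 3 had an unadjusted p under 0.05: Adm at 394 ± 39.8 TPM in siHk2 and 297 ± 41.8 TPM in siControl, Mxi1 at 23.0 ± 0.760 and 27.6 ± 2.25 TPM in the same order, and Bnip3 at 187 ± 10.7 and 167 ± 10.3 TPM. Of all 13341 tested genes, 4093 had an unadjusted p under 0.05 in limma, so 3 of 10 lies close to the background. P4ha1, P4ha2 and Plod2 are known as hypoxia-inducible too, and their log2 fold changes were -0.23, 0.03 and 0.34.

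The genes whose profile over the 6 libraries was most like that of a member were sought among 9946 genes averaging 5 TPM or more, by the root mean square difference of log2(TPM + 1) values centred on each gene's own mean. For P4ha1 the nearest was P3h3 (0.0221), followed by Pde4a (0.0223), a phosphodiesterase of cyclic AMP, and Guk1 (0.0235), guanylate kinase. For Plod2 they were Asah1 (0.0257), acid ceramidase, Vasn (0.0298) and Pex13 (0.0370), and for Loxl2 they were Nbdy (0.0325), Slc35a1 (0.0352) and Prdx5 (0.0386). P4ha1 itself varied by 0.136 about its mean on this scale, Plod2 by 0.188 and Loxl2 by 0.154. All these profiles share the same 6 libraries. P4ha1, Plod2 and Loxl2 were taken as the members with the smallest p of their enzyme classes. Centring over all 6 libraries keeps the difference between the groups, so a like group difference brings genes close. Whether these genes are regulated together was not tested.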

How the data were processed

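RNA was extracted with Trizol, poly(A)-selected and sequenced on a BGI platform, per the labels' protocols. The authors deposited 1 table of TPM values for 6 libraries, rounded to 2 decimals; each column sums to 1000000 within rounding. Build GRCm39 (mm39) is named in the submitters' processing notes; aligner, counter, annotation release and strand setting: not given in the sources used here. TPM keeps no depth, so the depth per library is unknown and no counting intervals are given.

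Columns of siHk2 carry their sample's title, whereas those of siControl are numbered 4, 5 and 6 and were matched to the group only. The 13341 genes averaging 1 TPM or more entered limma (version 3.58.1, R 4.3.3) as log2(TPM + 1), with empirical Bayes moderation along a mean-variance trend. Tests were two-sided, and p-values were adjusted over all 13341 genes by Benjamini-Hochberg (threshold 0.05). The pseudocount means that fold changes of low genes are understated. Shares and ratios were compared by exact permutation with scipy 1.17.1 (numpy 2.4.6, pandas 2.3.3, Python 3.11.15; figures with matplotlib 3.10.9).

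The members and lists were chosen with earlier results of these data known. Named were all 10 members, Hk2, up to 4 genes of each list with the smallest p or a small count, and the 3 genes most alike to a member of each enzyme class. Col1a1, Col1a2, Col5a1, Col6a1, Col6a2, Col6a3, Gm41724, Znhit1, cell type markers and genes listed near 0 were named beyond this, some after their values were seen. Alternatives were other pseudocounts, filters, scalings, weights, no trend, and leaving out libraries. Promoters came from RefSeq (GRCm38.p6) and transcripts from GENCODE M21 (GRCm38); gene coordinates are those of the deposited table.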

Additional observations from a re-analysis of the deposited data

How the results depend on the processing

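Hk2 siRNA against control gave 1810 genes past the threshold, 1186 with no filter on low values, 1057 with no mean-variance trend, 4040 with library weights, 506 to 2129 without single libraries (506, 720 and 866 without siHk2 library 3, 2 and 1, 662 without siControl library 4), and 616 without siControl library 5 and siHk2 library 2, a setting chosen after seeing the data. The number of members past it, 1 (Plod2), was 2 with a filter at 5 TPM and with median-ratio scaling (P4ha1 added), 3 with library weights (P4ha1 and Loxl2 added), 0 with no mean-variance trend, 0 to 3 without single libraries (0 without siHk2 library 3 or siControl library 4, 3 without siControl library 6), and 0 without siControl library 5 and siHk2 library 2, in limma; 3 members had an unadjusted p under 0.05 with all libraries. Of all 13341 tested genes, 4093 had an unadjusted p under 0.05 in limma. Where fewer libraries were fitted, fewer degrees of freedom were left, and without siControl library 6 the number of genes past the threshold was 2129. Why these counts moved was not tested. P4ha2 reversed its sign with library weights (-0.031), and without single libraries it ran from -0.0186 to 0.0752, Plod3 from -0.1197 to 0.0605 and Loxl1 from -0.0764 to 0.0103, none of them past the threshold in any setting. The other 5 tested members kept their sign in all 15 alternatives. The shares of P4ha1, Plod2 and Lox and the ratios to type I collagen kept theirs without single libraries, and the ratios did with type III collagen added. No paired analysis was possible because control columns are numbered 4 to 6, unlike the titles, so the planned replicate block was not run. TPM keeps no depth, so how far counting error limits the low genes is unknown.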

Other observations

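In several families of collagen biosynthesis 1 paralog was listed near 0 while at least 1 relative was well above 1 TPM. Besides P4ha3 and Lox, P3h2, a prolyl 3-hydroxylase, was at 0.0333 ± 0.0289 TPM in siHk2 and 0.0167 ± 0.0289 TPM in siControl (SD, n = 3 each), and Colgalt2, a collagen galactosyltransferase, had the same means. Tll2, a relative of Bmp1, and Adamts3, an N-propeptidase, were listed at 0 in all siControl libraries and in 2 of 3 siHk2 libraries. Tll1, a further relative of Bmp1, is absent from the deposited table. Elastin, which Loxl1 crosslinks, was at most 0.04 TPM in any library. Thy1, Dcn and Lum, which commonly mark fibroblasts, were at most 0.54, 0.35 and 0.34 TPM. These values were picked out after they had been seen.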
